A study of Mus musculus with 12 samples.

Results

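The GIMAP genes encode GTPases of immunity-associated protein, a family of small guanine nucleotide-binding proteins made mainly in lymphocytes. They were chosen here as every gene of the table whose Entrez ID maps to a mouse symbol starting with Gimap, which gave 8 of the 9842 listed genes: Gimap1, Gimap3, Gimap4, Gimap5, Gimap6, Gimap7, Gimap8 and Gimap9. These were all 8 numbered Gimap genes of the RefSeq mouse gene table, and each stayed in every test. The family was selected on a measured value, the change of Gimap4 with loss of LSD1 in transitional B cells (TrB_KO against TrB_WT). The values of the Gimap genes in that comparison are therefore a description, and no test of them is given.

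RNA was measured in 12 libraries of splenic B cells from female C57BL/6J mice, 3 in each of 4 groups, with 2000 sorted cells behind each library. The eMZB_KO and eMZB_WT groups were marginal zone B cells grown from transitional B cells during 3 days of culture with the cytokine BAFF and the Notch ligand DL1, and then sorted. The TrB_KO and TrB_WT groups were transitional B cells sorted without stimulation. KO marks a knockout of LSD1, a histone demethylase encoded by Kdm1a, and WT marks wild type. Neither the knockout allele nor the cells in which it acts is stated in the labels. The eMZB against TrB comparison holds cell type, culture and stimulation together, and these cannot be told apart. Whether the replicates of a group are separate animals is not stated, so p-values measure the spread between libraries alone, and that spread may be technical.

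GIMAP proteins carry a guanine nucleotide-binding domain of their own type, and several sit on membranes such as those of the endoplasmic reticulum, mitochondria or lysosomes. They bind GTP, form homo- or heterodimers, and act in the survival, death and maintenance of lymphocytes. In mice, loss of Gimap5 causes lymphocytes to be lost, loss of Gimap1 depletes mature T and B cells, and Gimap4 promotes the death of T cells that have entered apoptosis. The genes lie side by side in a single cluster in mammals.

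In these data the family did not move as a block. Gimap4, Gimap3 and Gimap7 rose in eMZB cells relative to TrB cells of the same genotype, Gimap9 fell in both genotypes, and Gimap6 fell in the KO pair. Gimap1, Gimap5 and Gimap8 did not pass the test in either. With loss of LSD1 in eMZB cells no member passed the test. Relative to its level, Gimap4 had the widest range of group means in the family, with 27.8 ± 2.38 scaled FPKM in eMZB_KO, 21.0 ± 0.473 in eMZB_WT, 13.3 ± 1.71 in TrB_KO and 5.94 ± 0.961 in TrB_WT (SD, n = 3 each). FPKM are fragments or reads per kilobase of a gene, corrected for the size of the library; scaled FPKM are these values divided by a factor for each library, so that the typical gene is level across libraries.

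The 8 genes occupied 123.7 kb of mouse chromosome 6, from 48647186 to 48770851 in mm10 (GRCm38). In the order of the chromosome they were Gimap8, Gimap9, Gimap4, Gimap6, Gimap7, Gimap1, Gimap5 and Gimap3, with Gimap6 and Gimap3 on the minus strand and the rest on the plus strand. Gimap4 (Entrez 107526) ran from 48684578 to 48692062. Its neighbours on either side, Gimap9 (Entrez 317758, from 48676121 to 48679116) and Gimap6 (Entrez 231931, from 48701583 to 48708244), did not rise with it. Gimap7 (Entrez 231932, from 48718621 to 48724636) and Gimap3 (Entrez 83408, from 48764464 to 48770851), which did, lay further along, with Gimap1 (Entrez 16205, from 48739047 to 48743795) and Gimap5 (Entrez 317757, from 48746197 to 48754200) between them.

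The promoters of the 3 genes that rose in eMZB cells and of Gimap9, which fell, are printed so that neighbours with opposite changes can be set side by side. Each is 300 bases of RefSeq sequence (GRCm38.p6), from 250 bases before to 50 bases after the annotated start, 5′ to 3′ in the direction of the gene, with motif matches in capitals.
Gimap4, chr6:48684328-48684627, + strand: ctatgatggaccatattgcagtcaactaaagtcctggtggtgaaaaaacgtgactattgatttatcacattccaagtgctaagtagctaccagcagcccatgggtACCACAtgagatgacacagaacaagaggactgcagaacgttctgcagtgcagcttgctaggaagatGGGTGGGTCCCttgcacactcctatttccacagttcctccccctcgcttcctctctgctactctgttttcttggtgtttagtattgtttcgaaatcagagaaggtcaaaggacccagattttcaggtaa
Gimap7, chr6:48718371-48718670, + strand: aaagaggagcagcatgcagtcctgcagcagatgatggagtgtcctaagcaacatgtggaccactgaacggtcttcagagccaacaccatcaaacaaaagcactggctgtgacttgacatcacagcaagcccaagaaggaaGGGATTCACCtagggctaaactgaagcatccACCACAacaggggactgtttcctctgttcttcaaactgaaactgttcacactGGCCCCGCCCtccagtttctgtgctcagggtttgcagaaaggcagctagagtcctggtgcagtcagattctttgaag
Gimap3, chr6:48770802-48771101, - strand: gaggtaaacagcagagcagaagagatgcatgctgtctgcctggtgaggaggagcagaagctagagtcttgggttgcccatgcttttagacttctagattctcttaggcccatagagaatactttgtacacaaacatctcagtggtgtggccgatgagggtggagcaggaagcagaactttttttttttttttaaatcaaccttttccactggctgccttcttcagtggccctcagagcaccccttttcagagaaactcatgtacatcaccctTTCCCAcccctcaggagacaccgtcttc
Gimap9, chr6:48675885-48676184, + strand: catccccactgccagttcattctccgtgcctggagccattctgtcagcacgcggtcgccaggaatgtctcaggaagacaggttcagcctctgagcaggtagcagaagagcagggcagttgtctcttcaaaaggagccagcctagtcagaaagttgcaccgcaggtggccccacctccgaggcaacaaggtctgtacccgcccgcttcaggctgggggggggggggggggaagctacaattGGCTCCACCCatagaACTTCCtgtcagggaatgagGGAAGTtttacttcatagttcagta
The motifs searched on both strands were TGGGAA for RBPJ, the DNA-binding partner of Notch, GGAAGT for the ETS family, TGTGGT for the RUNX family, CAGCTG for E proteins and, for NF-kB, GGG followed after any 5 bases by CC. Matches to different motifs did not overlap in these 4 promoters.

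The Gimap4 promoter held a RUNX match with its first base at -145 from the start site and overlapping NF-kB matches, one on each strand, at -79 and -78. The Gimap7 promoter held a RUNX match at -79 and NF-kB matches at -110 and -27. The Gimap3 promoter held the family's 1 RBPJ match, at 23 bases after the start. The Gimap9 promoter held ETS matches at 6 and 26 and an NF-kB match at -10. Over the 9 Gimap promoters of the table (Gimap8 has 2), 1 held the RBPJ letters, 4 the ETS, 3 the RUNX, 5 the NF-kB and 0 the E protein letters. Among all 32851 promoters of this length, those shares were 25.6%, 23.8%, 16.8%, 50.8% and 16.3% in the same order. The 2 Gimap8 windows overlap and hold the same NF-kB sites, so these sites stand behind 2 of the 5 promoters. Matches are letters in a window, and no binding was measured.

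Reads in the listed genes ranged from 1.959 to 8.775 M (M, mega) per library, and the scaling factors from 0.613 to 2.14. TrB_KO replicate 3 stood apart, with 285 listed genes at 0 against 19 to 65 in the other libraries. As a check of the labels, Kdm1a had 2.65, 2.53 and 2.66 scaled FPKM in the eMZB_KO libraries and 7.53, 8.63 and 4.68 in those labelled eMZB_WT. It had 3.35, 2.56 and 2.99 in the TrB_KO libraries and 8.54, 7.93 and 3.47 in those labelled TrB_WT. The wild-type libraries numbered 3 thus lay nearer to the KO libraries than the other wild-type libraries did. The main results that rest on these 3 libraries are given with and without them. B cell markers were strongly present: Ms4a1, Cd79a, Cd79b, Pax5 and Ptprc were listed, and the summed level of these 5 was 962 to 997 scaled FPKM in eMZB_KO, 1028 to 1167 in eMZB_WT, 1567 to 1873 in TrB_KO and 1843 to 2148 in TrB_WT. In both genotypes 4 of the 5 fell in eMZB, all but Ptprc, beside 12.7% of all genes in the wild-type pair and 13.2% in the KO pair.

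**Figure D1:**
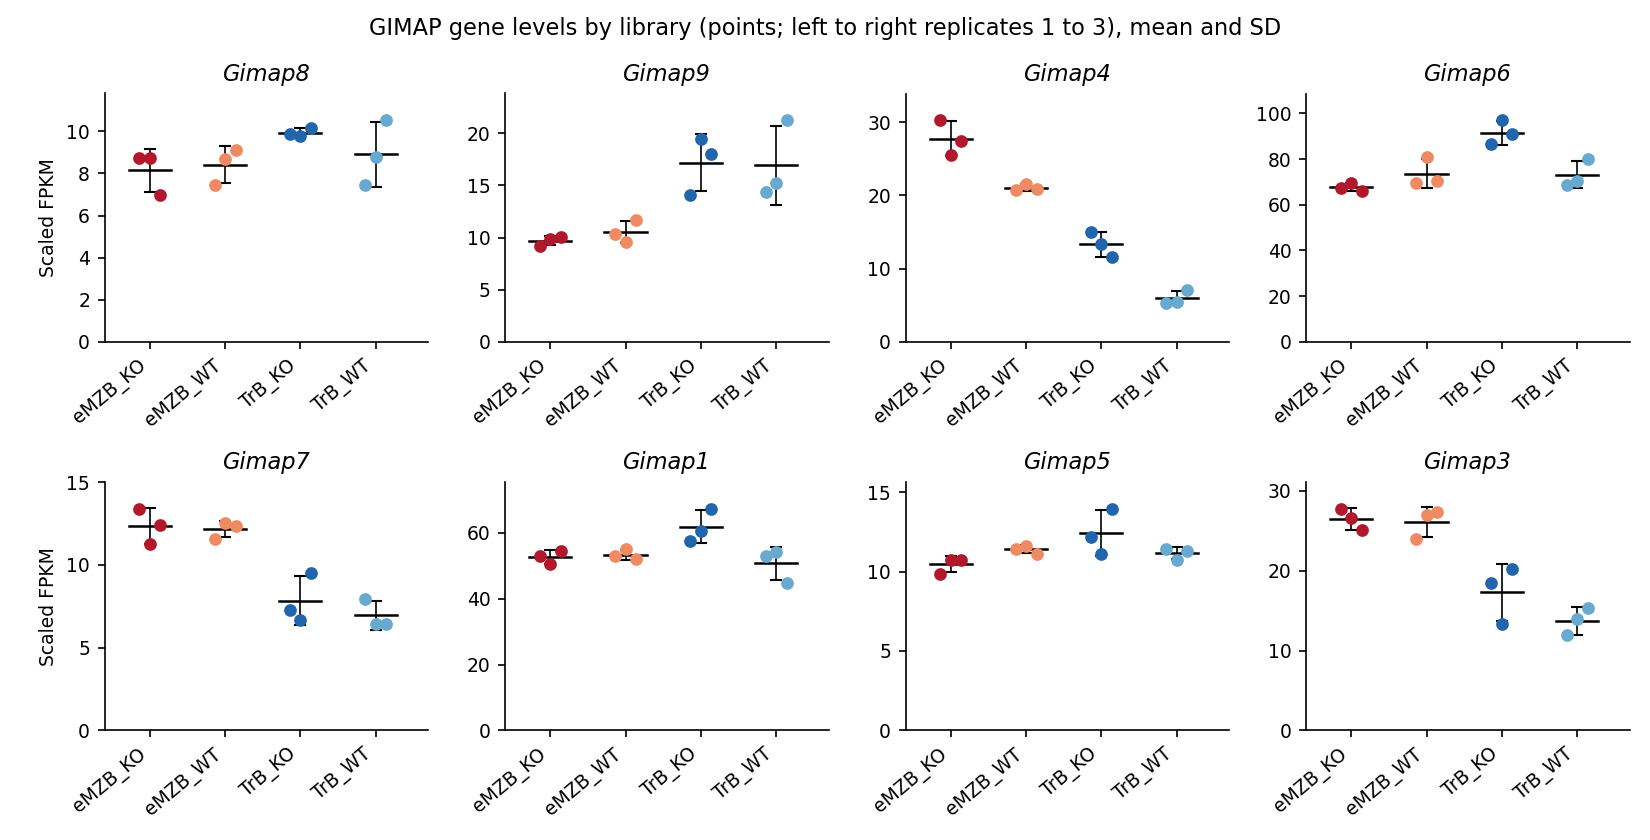
Scaled FPKM (vertical axis, from 0, a scale of its own in each panel) of the 8 Gimap genes in the 4 groups; points are single libraries, and lines are means with SD, n = 3. Gimap4 steps down from eMZB_KO to TrB_WT with no overlap between any 2 groups, Gimap3 and Gimap7 separate the cell types, and Gimap9 lies higher in TrB cells. The step of Gimap4 from TrB_KO to TrB_WT is the comparison that chose the gene.

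Gimap4 was followed in every library. It had 30.3, 25.6 and 27.4 scaled FPKM in eMZB_KO, 20.7, 21.6 and 20.8 in eMZB_WT, 15.0, 13.4 and 11.6 in TrB_KO, and 5.30, 5.48 and 7.05 in TrB_WT. The lowest library of each group lay above the highest library of the next, so that the 4 groups did not overlap. Of these steps, TrB_KO over TrB_WT is the comparison that chose the gene. These values rested on 1190, 796 and 1048 reads in eMZB_KO, 599, 870 and 962 in eMZB_WT, 412, 314 and 641 in TrB_KO, and 158, 98 and 92 in TrB_WT, so the precision of a single library was lowest in TrB_WT. Among the 9842 listed genes the group mean of Gimap4 stood at the 93.7th percentile in eMZB_KO, the 90.8th in eMZB_WT, the 83.4th in TrB_KO and the 62.2nd in TrB_WT. Gimap4 shared no exact stretch of 50 bases with the annotated transcripts of any other gene. Near matches and sequence outside annotated transcripts were not searched.

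The comparison of eMZB_WT with TrB_WT asked how the family changes along the culture with LSD1 present. In limma, 4 of the 8 members passed at an adjusted p under 0.05, 3 higher and 1 lower in eMZB_WT; of all 9842 genes, 27.4% passed, 14.6% higher and 12.7% lower. Gimap4 rose 3.54-fold by its means, with a log2 change of 1.67 (SE 0.12, adjusted p = 8.0e-07). In bulk samples, fewer cells of a type and less RNA per cell cannot be told apart. Without the wild-type libraries numbered 3, the log2 change of Gimap4 was 1.79 (adjusted p = 9.2e-06). This comparison shares the TrB_WT libraries with the one that drew attention to Gimap4.

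Gimap3, a membrane-anchored relative of Gimap5, had 24.0, 27.0 and 27.4 scaled FPKM in eMZB_WT, against 11.9, 13.9 and 15.4 in TrB_WT. All eMZB_WT libraries were higher, and the log2 change was 0.89 (SE 0.14, adjusted p = 0.000464). Gimap7, a GTPase that in human cells pairs with other GIMAP proteins and stimulates their GTP hydrolysis, had 11.6, 12.5 and 12.4 in eMZB_WT, against 7.95, 6.46 and 6.45 in TrB_WT. These groups did not overlap either, and the log2 change was 0.73 (adjusted p = 0.000901). Over all genes, 21.8% lay wholly higher and 23.3% wholly lower in eMZB_WT, beside 3 and 1 of the 8 members. Gimap9 had 10.4, 9.54 and 11.6 in eMZB_WT, against 14.3, 15.2 and 21.3 in TrB_WT. Here all eMZB_WT libraries were lower, with a log2 change of -0.62 (SE 0.15, adjusted p = 0.00764). Without the wild-type libraries numbered 3 the log2 changes were 0.93, 0.67 and -0.53 for Gimap3, Gimap7 and Gimap9, and the highest adjusted p among them was 0.0192.

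On the FPKM as deposited, without the scaling, the median of all genes was 0.67 higher in eMZB_WT on the log2 scale, and 3 of the 8 members were called in this comparison, beside 19.3% of all genes. Gimap9 then had a log2 change of 0.19 (adjusted p = 0.729), so its fall is relative to the typical gene. Gimap6 had 69.3, 80.9 and 70.4 scaled FPKM in eMZB_WT, against 68.8, 70.6 and 80.0 in TrB_WT, ranges that overlap (log2 change 0.01, adjusted p = 0.956). In human cells, GIMAP6 is a cytosolic member that binds GABARAPL2 and is recruited to autophagosomes.

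The comparison of eMZB_KO with TrB_KO asked the same of cells without LSD1 and shares no library with the wild-type comparison, though it shares the TrB_KO libraries with the one that drew attention to Gimap4. Here 5 of the 8 members passed, 3 higher and 2 lower in eMZB_KO, beside 27.4% of all genes, 14.2% higher and 13.2% lower. Gimap4 rose 2.08-fold by its means (log2 change 1.01, SE 0.12, adjusted p = 4.5e-05). Gimap3 had 27.8, 26.5 and 25.1 scaled FPKM in eMZB_KO, against 18.4, 13.3 and 20.2 in TrB_KO (log2 change 0.61, adjusted p = 0.00573). Gimap7 had 13.4, 11.3 and 12.4 in eMZB_KO, against 7.28, 6.70 and 9.51 in TrB_KO (log2 change 0.61, adjusted p = 0.00307). The 3 genes that rose were those that rose in the wild-type pair, and none of their KO groups overlapped.

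Gimap9 had 9.20, 9.88 and 10.03 scaled FPKM in eMZB_KO, against 14.1, 19.4 and 18.03 in TrB_KO (log2 change -0.76, adjusted p = 0.00231). Gimap6 had 67.1, 69.7 and 66.2 in eMZB_KO, against 86.4, 97.0 and 91.1 in TrB_KO, with every eMZB_KO library lower (log2 change -0.43, SE 0.09, adjusted p = 0.0027). Gimap1 had 52.9, 50.4 and 54.6 in eMZB_KO, against 57.4, 60.6 and 67.3 in TrB_KO. It did not pass (log2 change -0.23, adjusted p = 0.0774), nor did Gimap5 with a log2 change of -0.22 (adjusted p = 0.0829), though neither pair of groups overlapped. Gimap1 did pass without the library labelled TrB_WT replicate 3 (adjusted p = 0.0319) and without both wild-type libraries numbered 3 (adjusted p = 0.0441), and Gimap5 did without TrB_KO replicate 2 (adjusted p = 0.0383). Of the 8 members, 3 lay wholly higher and 5 wholly lower in eMZB_KO, beside 22.7% and 21.2% of all genes.

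Without TrB_KO replicate 3, the log2 changes in the KO pair were 0.93 for Gimap4, 0.73 for Gimap3, 0.75 for Gimap7, -0.70 for Gimap9 and -0.42 for Gimap6, and all 5 still passed. On the FPKM as deposited, where that library has the largest sum, limma called 0 of the 8 members in the KO pair, 1 had an unadjusted p under 0.05, and 4.67% of all genes were called. Gimap4 then had a log2 change of 1.30 (adjusted p = 0.0761). On scaled values limma-voom on recovered reads called 5 members, beside 31.9% of all genes. In limma 7 members had an unadjusted p under 0.05. The share of all genes at that unadjusted threshold is not given, so nothing is read from the 7. The median log2 change of the 8 members was 0.05 in the wild-type pair and -0.22 in the KO pair, beside -0.0016 and -0.0085 over all genes.

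**Figure D2:**
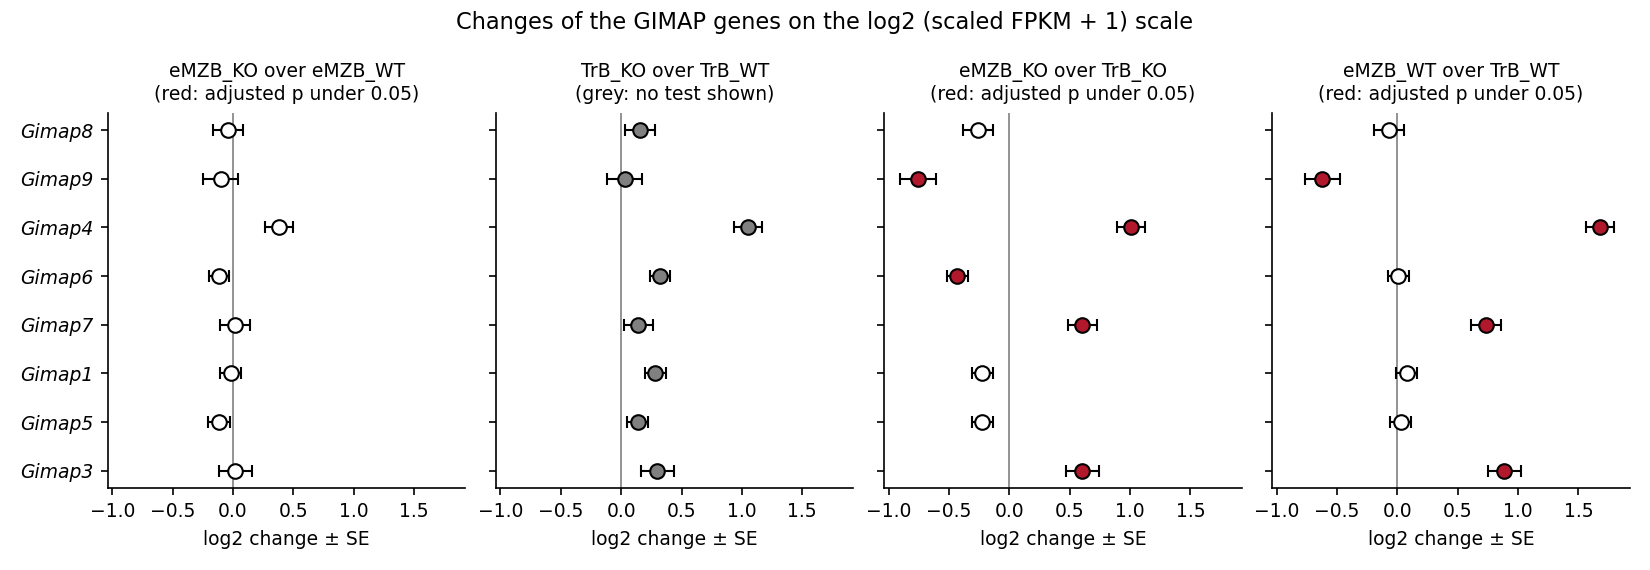
Log2 change of each Gimap gene (horizontal axis, points with the SE of the limma fit as bars) in 4 panels: LSD1 loss in eMZB, LSD1 loss in TrB, the cell types in KO and the cell types in wild type; red points passed at an adjusted p under 0.05, and grey points are given with no test. Gimap4, Gimap3 and Gimap7 lie to the right of 0 and Gimap9 to the left in both cell type panels, and no point is red for LSD1 loss in eMZB.

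Loss of LSD1 in eMZB cells was the comparison that shares no library with the one that drew attention to Gimap4. Its fit still took the spread from all 12 libraries. None of the 8 members passed in limma, beside 0.406% of all genes; 1 member had an unadjusted p under 0.05, and limma-voom on recovered reads also called 0, beside 0.498% of all genes. That member was Gimap4, whose 3 eMZB_KO libraries all lay above the 3 eMZB_WT libraries. It was 1.32-fold higher by its means, and its log2 change of 0.38 (SE 0.12) had a 95% interval of 0.13 to 0.63 and an adjusted p of 0.429. Without the wild-type libraries numbered 3 it was also 0.38 (adjusted p = 0.414). With the 6 eMZB libraries alone in limma it was 0.39 (adjusted p = 0.0591). For the other 7 members the log2 changes ran from -0.12 for Gimap6 to 0.02 for Gimap3. The interval for Gimap3 was -0.28 to 0.32 and that for Gimap6 was -0.30 to 0.07. Gimap5 had 9.87, 10.7 and 10.7 scaled FPKM in eMZB_KO, against 11.4, 11.6 and 11.1 in eMZB_WT, all lower in eMZB_KO (log2 change -0.11, adjusted p = 0.9999). With 1 member wholly higher and 1 wholly lower, the shares over all genes were 9.13% and 9.29%.

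Loss of LSD1 in transitional cells is given as a description. Gimap4 was 2.24-fold higher by its means in TrB_KO, with a log2 change of 1.05 (SE 0.12). Nothing is read from the size of this change, since this comparison chose the gene. The change was 1.58 on the FPKM as deposited, where the median over all genes was 0.52. With the 6 TrB libraries alone it was 1.01. The log2 change of Gimap4 was 1.13 without TrB_KO replicate 3 and 1.16 without the wild-type libraries numbered 3. All 8 members had a positive log2 change, with a median of 0.22 beside 0.0060 over all genes. Gimap9 was the smallest at 0.03, and its sign turned on upper-quartile scaling, where it was -0.028, and without TrB_KO replicate 3, where it was -0.0084; it also turned in 3 other fits that left out 1 library. Gimap6 and Gimap1 also had groups that did not overlap, with log2 changes of 0.32 and 0.28. These were 0.32 and 0.22 without TrB_KO replicate 3, and 0.38 and 0.20 without the wild-type libraries numbered 3. Together with Gimap4 these were 3 of 8 members, beside 6.14% of all genes wholly higher in TrB_KO. Nothing is read from this count, since it includes Gimap4, which was chosen on this comparison.

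The difference between both responses to LSD1 loss, the eMZB response minus the TrB response, was negative for all 8 members, with a median of -0.27 beside -0.0059 over all genes; that of Gimap7, -0.12, turned to 0.011 without TrB_KO replicate 3. It contains the comparison that chose Gimap4, for which it was -0.67 (SE 0.16). For Gimap6 it was -0.44 (adjusted p = 0.512) and for Gimap1 it was -0.30 (adjusted p = 0.686). For Gimap4, Gimap6 and Gimap1 it was -0.75, -0.44 and -0.24 without TrB_KO replicate 3, and -0.78, -0.53 and -0.23 without the wild-type libraries numbered 3. None of the 8 members passed in limma, beside 0.0102% of all genes; 3 had an unadjusted p under 0.05, and limma-voom on recovered reads called 0, also beside 0.0102%. Gimap4 is among the 8 and among the 3, though this difference contains the comparison that chose it. Its values therefore cannot decide whether its response differed between the cell types. For the other members, no difference between the cell types in the response to LSD1 loss was shown.

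The members called higher in no comparison included the most abundant ones, though 2 of these, Gimap6 and Gimap1, lay wholly higher in TrB_KO than in TrB_WT. Gimap6 and Gimap1 had the highest levels of the family per length, at the 98.1st to 98.9th and the 97.3rd to 97.9th percentile of listed genes over the 4 groups. Gimap8, which carries several GTPase domains in a row, had 8.74, 8.75 and 6.98 scaled FPKM in eMZB_KO, 7.44, 8.70 and 9.11 in eMZB_WT, 9.88, 9.77 and 10.2 in TrB_KO, and 7.46, 8.78 and 10.5 in TrB_WT. In the 4 comparisons its groups overlapped except in the KO pair. Gimap5 stayed between 9.87 and 13.96 in all 12 libraries, and Gimap1 between 44.9 and 67.3.

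Some reads of these genes can belong to more than one annotation. The antisense gene Gimap1os covers 36.0% of the exon bases of Gimap1, and the library kit does not mark strand, so their reads cannot be told apart. Of the 50-base stretches of Gimap3, 7.52% also occur in Gimap5, and 4.53% of those of Gimap5 occur in Gimap3. The read-through gene Gm28053 covers 3.48% of the exon bases of Gimap7, 6.44% of those of Gimap1 and 3.69% of those of Gimap5. Gimap8 and Gimap9, like Gimap4, shared none.

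The make-up of the family shifted with Gimap4. Summed over the 8 genes, the family had 215 ± 3.60 scaled FPKM in eMZB_KO, 217 ± 9.71 in eMZB_WT, 231 ± 10.5 in TrB_KO and 187 ± 8.57 in TrB_WT (SD, n = 3). Within that sum, a share that no scaling of a library can change, Gimap4 took 13.8%, 12.02% and 12.8% in eMZB_KO, 9.97%, 9.51% and 9.69% in eMZB_WT, 6.80%, 5.79% and 4.79% in TrB_KO, and 2.95%, 2.95% and 3.58% in TrB_WT. The groups kept the same order and did not overlap, where TrB_KO over TrB_WT is the comparison that chose Gimap4. The share of Gimap9 ran the other way between cell types, at 4.51% ± 0.277 in eMZB_KO and 4.87% ± 0.614 in eMZB_WT, against 7.42% ± 1.005 in TrB_KO and 8.99% ± 1.57 in TrB_WT. Gimap6 held the largest share in every group, from a mean of 31.4% in eMZB_KO to 39.6% in TrB_KO.

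**Figure D3:**
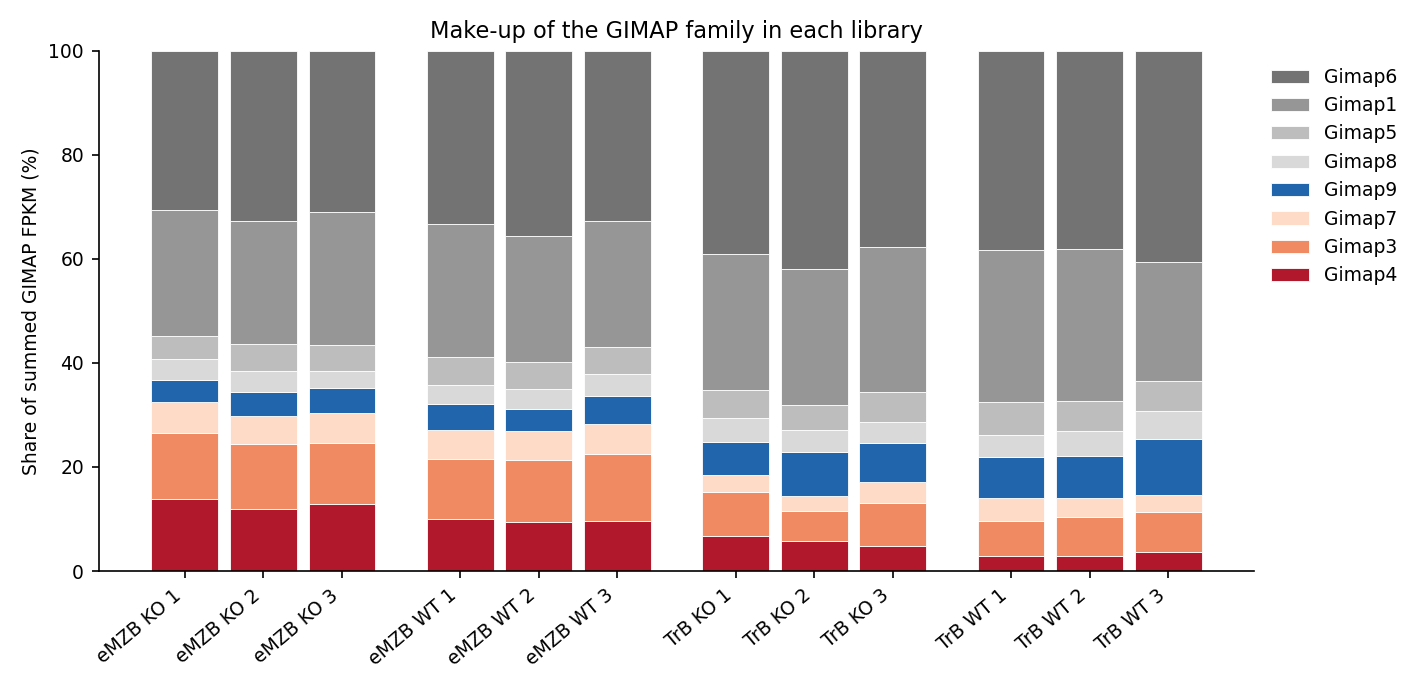
Share of the summed FPKM of the 8 Gimap genes taken by each gene (vertical axis, percent) in each of the 12 libraries. The share of Gimap4 is 12.02% to 13.8% in eMZB_KO, 9.51% to 9.97% in eMZB_WT, 4.79% to 6.80% in TrB_KO and 2.95% to 3.58% in TrB_WT.

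Over the 12 libraries, Gimap3 and Gimap7 followed Gimap4, with Pearson r of 0.90 and 0.84 on log2 scaled FPKM, and Gimap3 and Gimap7 followed each other with 0.91. Gimap9 ran against Gimap4 with r of -0.76, and Gimap1, Gimap5, Gimap6 and Gimap8 had r between -0.29 and 0.04 with it. These correlations describe the 4 groups, whose libraries share cell type and genotype. Among 4412 genes with a mean of at least 5 scaled FPKM, the 5 most like Gimap4 were Dars with r of 0.98, and Ly6a, Mcm6, H2-Q7 and Gsn, each with 0.97. Ly6a, the surface antigen Sca-1, averaged 335 scaled FPKM in eMZB_KO, 284 in eMZB_WT, 77.4 in TrB_KO and 27.7 in TrB_WT, the same order of groups. The ranking picked Ly6a for its likeness over the same 12 libraries, so the shared order is no separate result. These libraries include the TrB_KO and TrB_WT ones on which Gimap4 was chosen. The 5 least like Gimap4 were Adssl1 with -0.96, Bach2 with -0.95, and Ttc17, Gpr107 and Ebf1, each with -0.94. Gimap3 came 126th and Gimap7 365th in this ranking.

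Genes around the cluster were looked at in a window of 1 Mb on each side, which held 13 listed genes, 11 before the cluster and 2 after it. In the wild-type pair 2 of the 13 passed, beside 27.4% of all genes. Both were higher in eMZB_WT: Pdia4, an endoplasmic reticulum folding enzyme, with a log2 change of 1.91, and Zfp783 with 0.57. In the KO pair 2 passed, Pdia4 with 1.35 and Zfp212 with -0.40, also beside 27.4% of all genes. In both comparisons of LSD1 loss limma called 0 of the 13, beside 0.406% of all genes in eMZB and 0.498% in TrB. Of the 13, 0 in eMZB and 3 in TrB had an unadjusted p under 0.05, and limma-voom called 0 in either. The nearest listed gene, Repin1, started 53.3 kb before the cluster and was called in none of the comparisons.

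**Figure D4:**
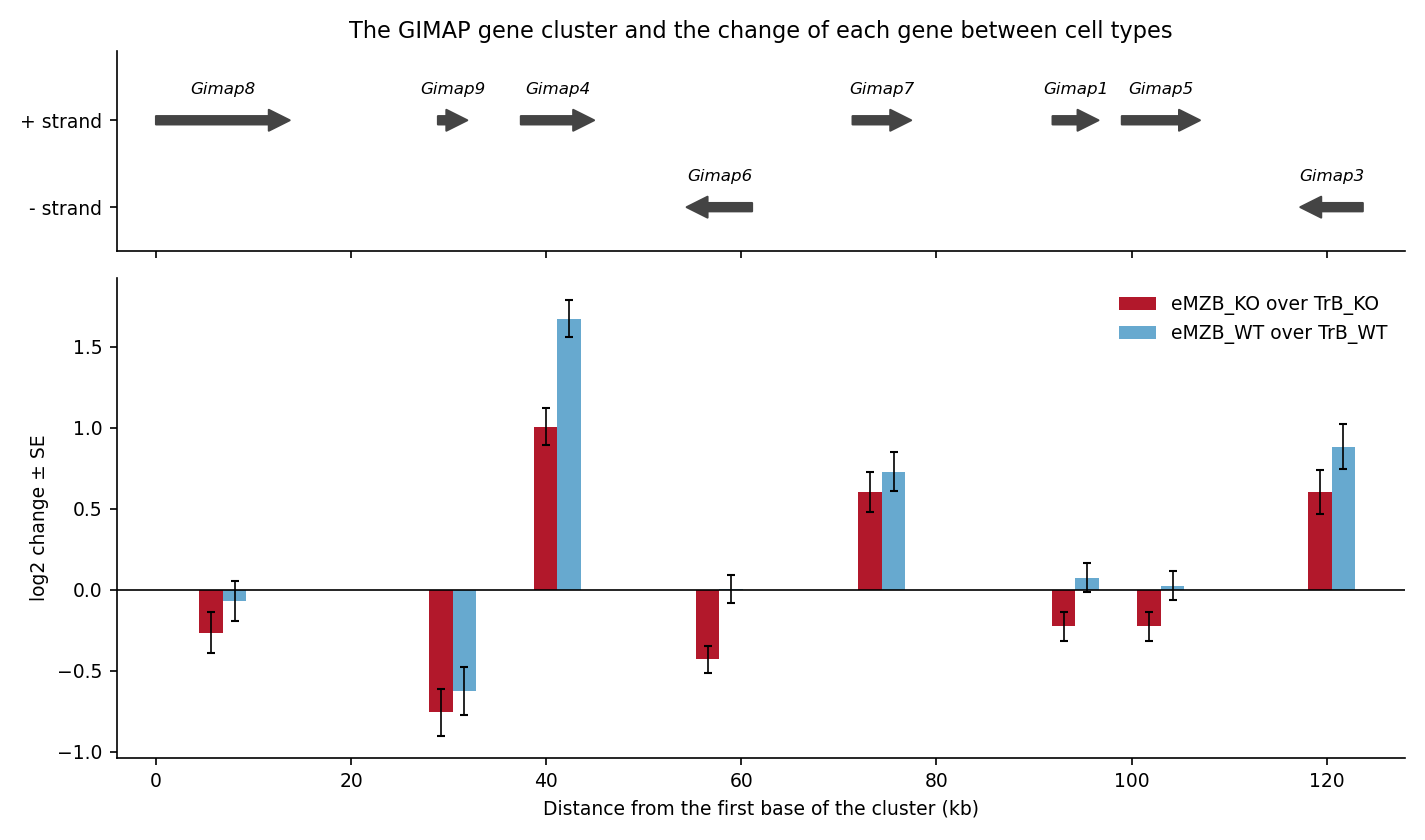
Gimap genes along the 123.7 kb cluster (horizontal axis, kb from its first base), drawn to scale as arrows in the direction of transcription, above bars of their log2 change (vertical axis, error bars are the SE of the limma fit) of eMZB_KO over TrB_KO in red and eMZB_WT over TrB_WT in blue. Gimap4 lies between Gimap9, which changed the other way between cell types, and Gimap6, and the genes that rose are not adjacent.

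Partners of GIMAP proteins, the BCL2 family and the autophagy proteins they are reported to bind or act with, were taken as a list of 13 genes, of which 11 were tested. In the wild-type pair 4 rose and 1 fell in eMZB_WT, beside 14.6% and 12.7% of all genes. The median log2 change of the 11 was 0.30, beside -0.0016 over all genes. Those that rose were the survival factor Bcl2 with 0.74 (adjusted p = 0.000456), the death factor Bcl2l11 with 0.70, and the autophagosome proteins Gabarapl2 with 0.49 and Gabarapl1 with 0.39. Atg7, an enzyme needed for autophagosome formation, fell with -0.54. In the KO pair Bcl2 and Gabarapl1 rose with 0.53 and 1.04, and Map1lc3b and Atg7 fell with -0.34 and -0.37. Beside these, 14.2% of all genes rose and 13.2% fell. The median was 0.17, beside -0.0085 over all genes. In both comparisons of LSD1 loss limma and limma-voom called 0 of the 11. Over all genes limma called 0.406% in eMZB and 0.498% in TrB. The medians were -0.10 in eMZB and -0.0046 in TrB, beside -0.0037 and 0.0060 over all genes. An unadjusted p under 0.05 was found for 1 in eMZB and 0 in TrB.

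Other GTPases of immune cells served as a second list, with 17 of 20 genes tested. In the wild-type pair 0 rose and 3 fell in eMZB_WT, beside 14.6% and 12.7% of all genes. Those that fell were Rhoh, a GTPase of haematopoietic cells, with -0.70, Mx2 with -0.47 and Gbp4 with -0.42. In the KO pair 3 rose in eMZB_KO, namely Gbp5 with 0.63, Tgtp2 with 0.61 and Gbp7 with 0.48. Another 6 fell, from Mx2 with -1.01 to Igtp with -0.39. Beside these, 14.2% of all genes rose and 13.2% fell. In both comparisons of LSD1 loss limma called 0 of the 17, beside 0.406% of all genes in eMZB and 0.498% in TrB. Of the 17, 5 in eMZB and 4 in TrB had an unadjusted p under 0.05. There limma-voom called Gbp7 in eMZB_KO (0.62, adjusted p = 0.0364) and 0 in TrB. Genes that mark lymphocyte maturation were a further list, with 13 of 17 tested. In the wild-type pair 2 rose and 5 fell, beside 14.6% and 12.7% of all genes. Among those called were Cr2, the complement receptor CD21 used in the eMZB sort, with 2.77, and Dtx1, a Notch target, with 2.80. Vpreb3, a gene of immature B cells, was called with -1.91. In the KO pair 3 rose and 6 fell, beside 14.2% and 13.2% of all genes. With LSD1 loss, Cr2 (0.55, adjusted p = 0.0469) was the 1 gene of the 13 that rose in TrB_KO, beside 0.498% of all genes called. There limma-voom called 0, and 5 had an unadjusted p under 0.05. In eMZB_KO limma and limma-voom called 0 of the 13, beside 0.406% and 0.498% of all genes, and 4 had an unadjusted p under 0.05.

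GIMAP genes are also expressed by T cells, NK cells and endothelial cells, so markers of those cells are set beside the results. Of 19 T cell markers, Lck and Cd2 were listed, and their summed level was 39.2 to 41.8 scaled FPKM in eMZB_KO, 37.3 to 39.5 in eMZB_WT, 66.6 to 82.2 in TrB_KO and 70.7 to 78.6 in TrB_WT. Of the defining T cell markers, Lck was listed. Cd3d, Cd3e, Cd3g, Thy1 and Zap70, the other defining ones, were not among the listed genes and were not analysed here. The same held for all 6 NK cell markers. Cd2, which B cells also express, fell in both eMZB groups relative to TrB cells, in the direction of Gimap9 and against that of Gimap4. Lck averaged 8.16 scaled FPKM in eMZB_KO, 6.55 in eMZB_WT, 6.77 in TrB_KO and 5.92 in TrB_WT. Its log2 changes lay in the direction of Gimap4, with 0.15 in the wild-type pair and 0.24 in the KO pair. With LSD1 loss they were 0.28 in eMZB and 0.19 in TrB, and Lck was called in none of these. Of 6 endothelial markers 1 was listed, Pecam1, with 18.2 to 19.5 in eMZB_KO, 15.0 to 16.2 in eMZB_WT, 25.7 to 39.9 in TrB_KO and 26.4 to 27.5 in TrB_WT. Pecam1 was called lower in eMZB in both genotypes, against the direction of Gimap4. Its log2 changes were -0.77 in the wild-type pair and -0.70 in the KO pair. Beside these, 12.7% and 13.2% of all genes fell. With LSD1 loss it had 0.26 in eMZB and 0.20 in TrB, and was called in neither. Of 7 macrophage and monocyte markers 4 were listed, with a sum of 50.6 to 58.4 in eMZB_KO, 13.0 to 23.0 in eMZB_WT, 51.1 to 64.6 in TrB_KO and 12.4 to 14.2 in TrB_WT. Of these 4, Ly6c2 was called higher with LSD1 loss in both cell types, with log2 changes of 1.63 in eMZB and 2.59 in TrB. Beside it, 0.406% of all genes were called in eMZB and 0.498% in TrB. The other listed markers of this set were not called in limma: Itgam had 0.74 in eMZB and 0.39 in TrB, Cd68 had 0.30 and -0.36, and Adgre1 had 0.10 and -0.51 in the same order. By limma-voom Itgam was called in eMZB (1.99, adjusted p = 0.00922). The part of these markers in the Gimap values was not tested.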

How the data were processed

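FPKM were deposited by the authors as a table of 9842 genes by Entrez ID, each with 1 FPKM or more in 3 or more libraries. Per the submitters' processing notes, STAR and the mm10 build were used; neither the counting program nor the annotation is named there. Per the labels' protocols, cDNA was made with SMART-Seq v4 and libraries with Nextera XT. Of the IDs, 9833 matched a symbol and 9 did not.

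Values were divided by median-of-ratios factors (0.613 to 2.14) and fitted as log2(scaled FPKM + 1) with limma 3.58.1 in R 4.3.3 (lmFit, eBayes with trend). The 4 group means were fitted over all 12 libraries, which leaves 8 residual degrees of freedom. Benjamini-Hochberg adjustment ran over all 9842 genes, and calls are at an adjusted p under 0.05. Counts at an unadjusted p under 0.05 have no share over all genes beside them, and nothing is read from them. Changes are on the log2(scaled FPKM + 1) scale, which understates those of low genes. For depth and limma-voom, whole reads were recovered from the FPKM steps, for 100% of genes within 0.02 reads. Reads copied by PCR are not separate molecules, so counting error is all that read numbers bound. No 2 replicates agreed within counting noise.

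The members, the lists (GIMAP partners, other immune GTPases, lymphocyte maturation, cell markers) and the scaling were chosen with earlier results of these data known; 1 gene of the maturation list and 1 B cell marker are not reported here. All members were named, with listed genes within 1 Mb of the cluster and the 5 genes at each end of the ranking by Pearson r with Gimap4. Labels number the replicates without saying what a number shares. Deviations of same-numbered libraries from their group means correlated in the pair eMZB_KO and TrB_KO with r of 0.161, 0.106 and 0.292, all over 0.1. In no other pair of groups were all 3 over 0.1. The main fit did not pair libraries. Replicate numbers entered only the alternative fit with the replicate block, which ran over all groups. Alternatives were the FPKM as deposited, upper-quartile scaling, a pseudocount of 0.1, a filter of 5 FPKM, 6 libraries alone, the replicate block, leaving out libraries, and limma-voom. Python 3.11.15, pandas 2.3.3, numpy 2.4.6 and matplotlib 3.10.9 served for the rest.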

Additional observations from a re-analysis of the deposited data

How the results depend on the processing

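The scale of the libraries mattered most. On the FPKM as deposited, 7 of the 40 log2 changes of members changed sign: Gimap1 (0.051) and Gimap8 (0.021) with LSD1 loss in eMZB, Gimap8 (0.70) and Gimap9 (0.19) in the wild-type pair, and Gimap1 (0.079), Gimap5 (0.048) and Gimap8 (0.0012) in the KO pair. The calls of Gimap9 in the wild-type pair and of Gimap3, Gimap4, Gimap6, Gimap7 and Gimap9 in the KO pair were lost there. Upper-quartile scaling changed the sign of Gimap6 (-0.051) and Gimap5 (-0.028) in the wild-type pair and of Gimap9 (-0.028) with LSD1 loss in TrB. Leaving out both wild-type libraries numbered 3 turned Gimap8 with LSD1 loss in eMZB to 0.013. The pseudocount of 0.1, the filter of 5 FPKM and limma-voom changed no member's sign or call. Neither did the replicate block, under which the counts of called genes were 27 (eMZB LSD1 loss), 2735 (wild-type pair), 2674 (KO pair), 39 (TrB LSD1 loss) and 1 (interaction), against 40, 2693, 2695, 49 and 1 without it.

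Leaving out 1 library at a time lost none of the 4 calls in the wild-type pair and none of the 5 in the KO pair. Signs turned for members near 0. With LSD1 loss in eMZB the ranges were -0.045 to 0.011 (Gimap1), -0.037 to 0.056 (Gimap3), -0.037 to 0.078 (Gimap7) and -0.12 to 0.054 (Gimap8). In the wild-type pair they were -0.012 to 0.13 (Gimap1), -0.0010 to 0.042 (Gimap5), -0.062 to 0.067 (Gimap6) and -0.18 to 0.041 (Gimap8). They were -0.074 to 0.19 for Gimap9 with LSD1 loss in TrB and -0.22 to 0.011 for Gimap7 in the interaction.

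Counts over all genes depended more on the setting. With LSD1 loss in eMZB 40 genes were called, against 15 as deposited, 71 with 6 libraries and 23 without the wild-type libraries numbered 3. With 1 library left out they ran from 15 to 52, and were 15, 19 and 16 without eMZB_KO replicates 1, 2 and 3 and 20, 21 and 16 without eMZB_WT replicates 1, 2 and 3. With LSD1 loss in TrB 49 were called, against 19 as deposited, 12 with 6 libraries and 22 by limma-voom, and 20 to 52 with 1 library left out, with 20 without TrB_WT replicate 1 and 31 without eMZB_KO replicate 1. The KO pair had 2695, against 460 as deposited, and 1963 to 3087 with 1 library left out; the wild-type pair ran from 1949 to 3415. The interaction had 1, against 15 as deposited, 0 with the filter and 2 without the wild-type libraries numbered 3, and 1 to 5 with 1 library left out, with 2 without eMZB_KO replicate 1 or 2 and 5 without TrB_WT replicate 3. The cause of these shifts was not tested. Depth limits Gimap4 most in TrB_WT, where 92 to 158 reads stood behind each value.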
